A study of Zea mays with 6 samples.

Results

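The benzoxazinoid genes of the maize seedling were followed in the sheath of leaf 2. A sheath is the base of the leaf, rolled around the stem and the younger leaves. The members were the 6 gene identifiers listed for the pathway cluster, bx1 (Zm00001d048709), bx2 (Zm00001d048710), bx3 (Zm00001d048702), bx4 (Zm00001d048703), bx5 (Zm00001d048705) and Zm00001d048634, listed as bx8. All 6 were found among the 44146 genes of the deposited tables. RNA sequencing had been done on 3 libraries of wild-type plants (WT) and 3 of knockout plants for GARR2, a long noncoding RNA (GARR2KO), all untreated seedlings at the stage of 3 leaves. The series text calls the replicates biological, but how GARR2 was disrupted, how many independent lines stand behind the GARR2KO libraries, the inbred background and whether the WT plants were siblings are not stated in the labels. No identifier could be tied to GARR2 or to a tissue marker, so neither the knockout nor the sheath label was checked against expression.

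Benzoxazinoids are indole-derived defence compounds of grasses, stored in young maize tissue as glucosides and released as toxic aglucones when a tissue is damaged by insects or fungi. BX1 splits indole-3-glycerol phosphate to free indole, the branch point from tryptophan synthesis. The cytochrome P450 enzymes BX2, BX3, BX4 and BX5 then add oxygen stepwise to give DIBOA, and the glucosyltransferase BX8 attaches the sugar. The genes are known for lying close together on 1 chromosome arm and for being most active in seedlings.

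The names were paired with identifiers by the list that chose the members, because the tables hold identifiers only. Their order was set beside the order of named genes in a RefSeq table, made on assembly Zm-B73-REFERENCE-NAM-5.0 rather than the authors' build, which holds all 6 names on chromosome 4. For bx3, bx4, bx5, bx1 and bx2 the order of identifier numbers was the same as the order of the names. For Zm00001d048634 it was not. That identifier stands before bx3, with 59 listed identifiers between them, whereas RefSeq places bx8 between bx5 and bx1. RefSeq places bx6, a dioxygenase gene of the same pathway, before bx3 with 65 entries between, and the files list a single identifier, Zm00001d048707, between bx5 and bx1. The name bx8 is therefore uncertain for Zm00001d048634, which is called by its identifier here and given no role. Zm00001d048707 carries no name in the files, and its values are given beside those of the members.

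All 6 members fell in GARR2KO sheaths. The falls ranged from a log2 fold change of -0.36 for bx2 and bx3 to -1.29 for Zm00001d048634, with a median of -0.78 against -0.01 over the 21531 genes tested (limma-trend on log2(FPKM + 1), 3 libraries per genotype, calls at a Benjamini-Hochberg adjusted p under 0.05). Of all tested genes 44.2% were called, 24.1% as falls and 20.1% as rises, and falls were called for 34.4% of the 5034 tested genes whose mean level was at least that of bx2. Falls did not outnumber rises over all genes under every scaling, with 4322 rises and 5195 falls on the deposited values but 5344 and 4497 with scaling by summed gene reads. Only Zm00001d048634 changed 2-fold or more, a size of fall seen in 2.01% of tested genes. In every member the 3 GARR2KO values lay below the 3 WT values, which held for 29.4% of tested genes. Without Zm00001d048634 the count was 5 of 5 with a median log2 fold change of -0.76, and with Zm00001d048707 in its place it was 6 of 6 with a median of -0.71. In tissue RNA, fewer cells that express a gene and less RNA per cell cannot be told apart.

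**Figure D1:**
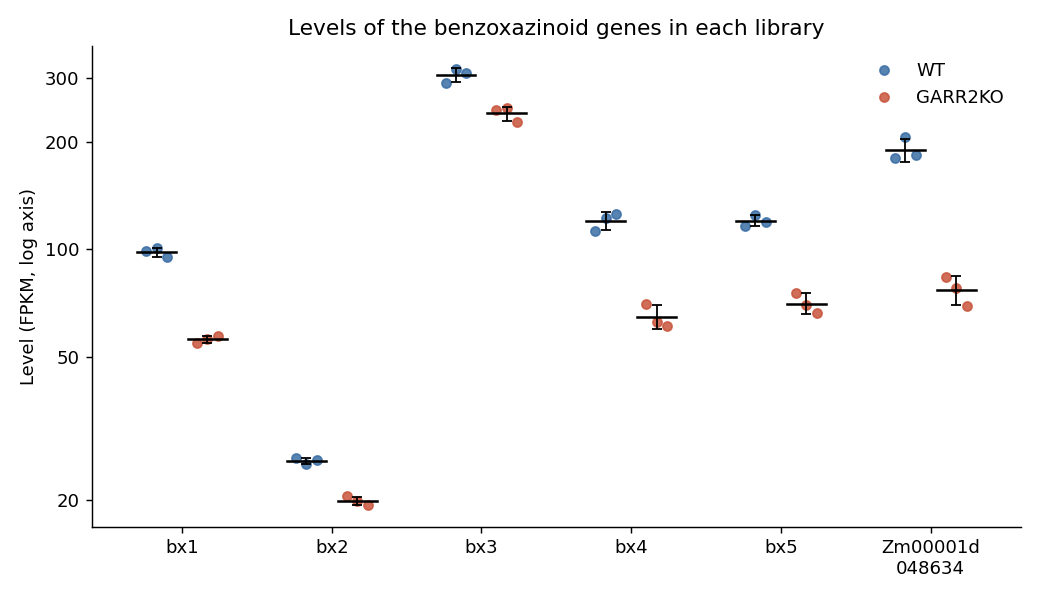
Level of each gene in FPKM (log axis) in the 3 WT and 3 GARR2KO libraries; points are libraries in replicate order, horizontal lines means and bars SD. For all 6 genes the GARR2KO points lie below the WT points, with the widest gap, 179 to 206 against 69.6 to 83.5 FPKM, for Zm00001d048634.

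The entry gene bx1 was listed at 98.7, 100.8 and 95.1 FPKM in WT replicates 1 to 3 and at 54.9, 56.1 and 57.4 FPKM in GARR2KO replicates 1 to 3. FPKM are fragments per kilobase of gene scaled to library size, so levels of different genes can be set side by side. The GARR2KO mean was 57.2% of the WT mean, 56.1 ± 1.2 against 98.2 ± 2.9 FPKM (SD, n = 3). On the log2(FPKM + 1) scale bx1 fell by 0.80 (SE 0.045, adjusted p = 5.14e-06, limma). The spread between libraries of a genotype was narrow, with coefficients of variation of 2.9% in WT and 2.2% in GARR2KO. Counting alone would give 1.9% in WT and 2.5% in GARR2KO at the mean number of reads per library. Its reads, recovered as whole numbers from the FPKM values, summed to 8557 over the 3 WT and 4934 over the 3 GARR2KO libraries.

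The P450 gene bx2, whose product oxidises indole to an indolinone, had the lowest level of the members in every library. It stood at 26.2, 25.2 and 25.9 FPKM in WT and at 20.5, 19.8 and 19.4 FPKM in GARR2KO. The gap between the lowest WT and the highest GARR2KO library was 4.7 FPKM, and the GARR2KO mean was 77.3% of the WT mean. The log2 fold change was -0.36 (SE 0.048, 95% interval -0.47 to -0.25, adjusted p = 0.000522, limma).

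The most abundant member was bx3, whose product hydroxylates that indolinone. It reached 292, 319 and 311 FPKM in WT and 244, 247 and 227 FPKM in GARR2KO, within the top 2% of tested genes in every library (percentiles 98.4 to 99.0). The groups did not overlap, and the GARR2KO mean was 77.9% of the WT mean. Its log2 fold change was -0.36 (SE 0.055, 95% interval -0.48 to -0.23, adjusted p = 0.00105, limma). The mean dropped by 67.9 FPKM, more than that of any other member but Zm00001d048634, although its fold change was among the smallest.

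The P450 genes of the last steps to DIBOA are bx4 (ring expansion to HBOA) and bx5 (hydroxylation of HBOA to DIBOA). They had the same mean level in WT, 120 FPKM, and both fell in GARR2KO. For bx4 the WT libraries held 112, 122 and 126 FPKM and the GARR2KO libraries 70.6, 62.9 and 61.3 FPKM. The fall left 54.0% of the WT mean, a log2 fold change of -0.88 (SE 0.067, 95% interval -1.03 to -0.73, adjusted p = 2.58e-05, limma). The libraries of a genotype did not come near those of the other, with 41.8 FPKM between the nearest values.

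For bx5 the values were 116, 125 and 120 FPKM in WT and 75.7, 70.0 and 66.3 FPKM in GARR2KO. The GARR2KO mean was 58.8% of the WT mean, with a log2 fold change of -0.76 (SE 0.058, 95% interval -0.89 to -0.63, adjusted p = 2.63e-05, limma). As for bx4, replicate 1 was the highest of the GARR2KO libraries and still lay 40.6 FPKM below the lowest WT library.

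Zm00001d048634 changed most. It was listed at 179, 206 and 183 FPKM in WT and at 83.5, 78.1 and 69.6 FPKM in GARR2KO, which is 40.7% of the WT mean. The log2 fold change was -1.29 (SE 0.078, 95% interval -1.47 to -1.11, adjusted p = 7.8e-06, limma). Among the 1338 other tested genes with a mean level within 2-fold of its own, 10 had a lower fold change. The corresponding shares were 2.81% of similarly abundant genes for bx4, 3.94% for bx1, 4.17% for bx5, 16.4% for bx2 and 20.8% for bx3.

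Zm00001d048707, the identifier between bx5 and bx1, was not a member and was singled out after its values had been seen. It stood at 33.1, 31.8 and 34.8 FPKM in WT and at 22.9, 19.3 and 19.6 FPKM in GARR2KO, 61.9% of the WT mean. It fell with a log2 fold change of -0.67 (SE 0.072, adjusted p = 0.000165, limma), between the values of bx3 and bx5.

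**Figure D2:**
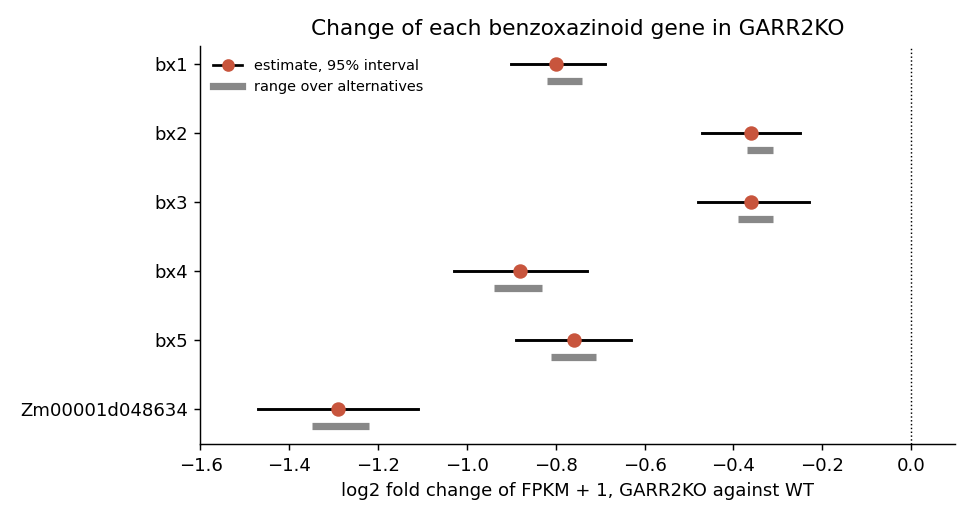
Estimated log2 fold change of FPKM + 1 in GARR2KO against WT (points) with 95% intervals (black lines). Grey bars are the range over 15 alternative fits, which comprise other processing settings and fits leaving out each library. Intervals of bx2 and bx3, near -0.36, lie to the right of those of the other 4 genes.

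The falls were of unequal size. The 95% intervals of the log2 fold change of bx2 and bx3 reached down to -0.47 and -0.48, and those of bx1, bx4 and bx5 reached up to -0.69, -0.73 and -0.63. To compare members without any scaling factor of the libraries, ratios of FPKM were taken within each library for all 15 pairs. The ranges of the ratio in WT and GARR2KO did not overlap for 12 pairs. The same held for 56.2% of pairs of all tested genes, and for 69.9% of pairs of tested genes at least as abundant as bx2, so the count is not far from that background. For each of these an exact permutation test (two-sided) gave p = 0.1, the lowest value possible with 3 libraries against 3, and 0.125 after Benjamini-Hochberg adjustment over the 15 pairs, so none could pass 0.05 in this design.

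The ratio of bx3 to bx4 was 2.56 ± 0.075 in WT and 3.70 ± 0.24 in GARR2KO (SD, n = 3), a log2 difference of 0.53. The ratio of bx1 to bx2, the genes of successive steps, was 3.81 ± 0.17 in WT and 2.82 ± 0.14 in GARR2KO, a log2 difference of -0.43. The widest shift was that of bx3 to Zm00001d048634, from 1.63 ± 0.076 to 3.12 ± 0.17. The ratio of bx4 to bx5 moved least among the 12, from 1.0 ± 0.046 to 0.919 ± 0.018.

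For 3 pairs the ranges overlapped. The ratio of bx2 to bx3 was 0.0839 ± 0.0053 in WT and 0.0832 ± 0.0027 in GARR2KO, a log2 difference of -0.01 (two-sided exact permutation p = 1.0). The ratios of bx1 to bx4 and of bx1 to bx5 differed by 0.08 and -0.04 on the log2 scale (two-sided exact permutation p = 0.4 and 0.8). These p-values do not show that the pairs changed alike.

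**Figure D3:**
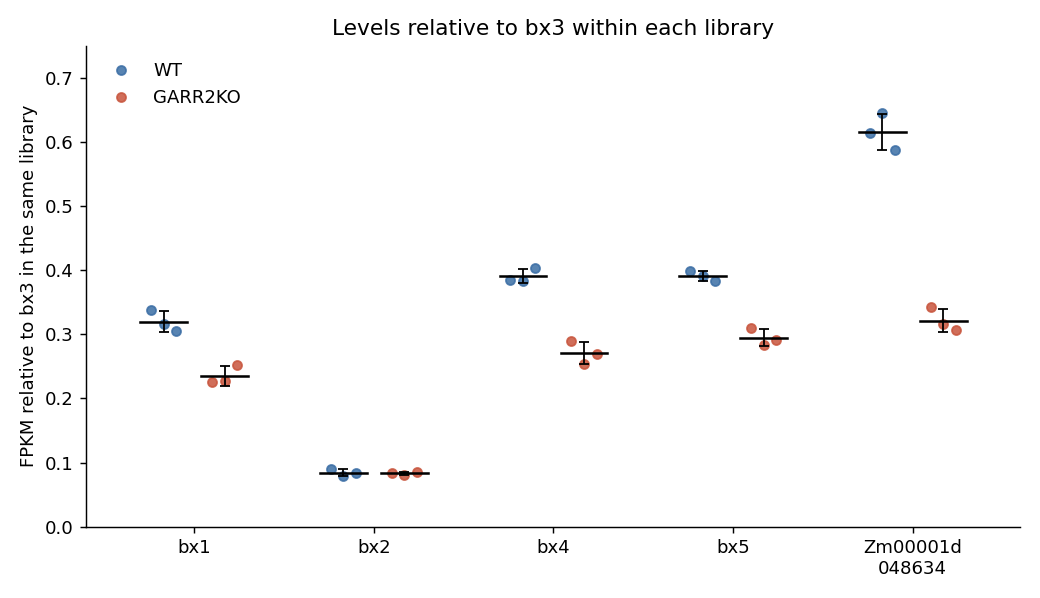
FPKM of each gene divided by that of bx3 in the same library, for 3 WT and 3 GARR2KO libraries; lines are means and bars SD. The points of bx2 overlap between genotypes near 0.08, while those of bx1, bx4, bx5 and Zm00001d048634 are lower in GARR2KO, for Zm00001d048634 0.321 ± 0.018 against 0.616 ± 0.029.

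The order of levels in WT ran from bx3 (307 ± 14 FPKM) through Zm00001d048634 (189 ± 14), bx5 (120 ± 4.3), bx4 (120 ± 7.0) and bx1 (98.2 ± 2.9) to bx2 (25.7 ± 0.51). Of neighbours in that order, the ranges of bx5 and bx4 alone overlapped. In GARR2KO the order of the means was the same, with bx3 at 240 ± 11 FPKM and Zm00001d048634 at 77.1 ± 7.0. There the ranges of Zm00001d048634 and bx5 (70.6 ± 4.7 FPKM) overlapped, as did those of bx5 and bx4 (64.9 ± 5.0).

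Summed over bx1 to bx5, the level was 646, 692 and 678 FPKM in WT and 466, 456 and 431 FPKM in GARR2KO. The GARR2KO sum was 67.2% of the WT sum. Within it the share of bx3 was 45.2 to 46.1% in the WT libraries and 52.4 to 54.2% in the GARR2KO libraries. The share of bx4 was 17.4 to 18.6% in WT and 13.8 to 15.1% in GARR2KO.

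**Figure D4:**
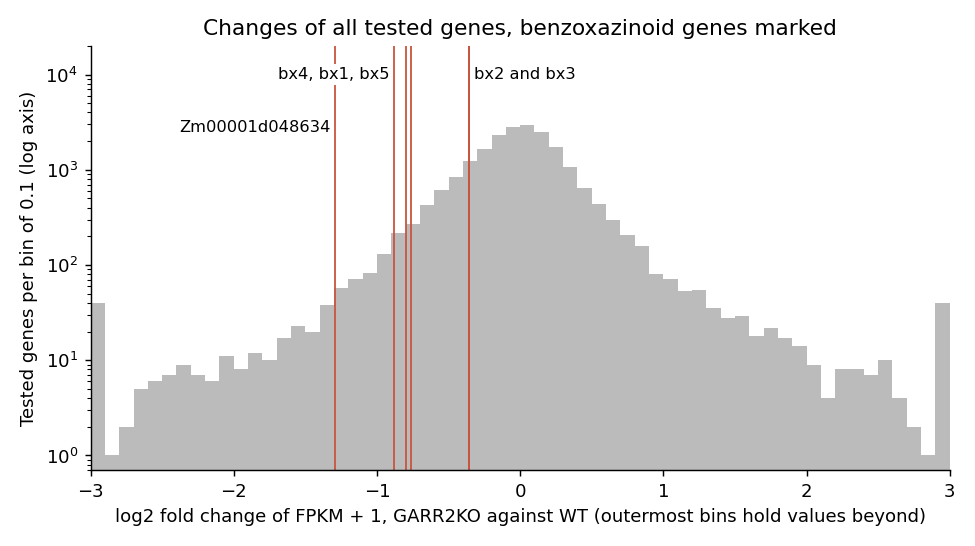
Number of tested genes (log axis) per bin of 0.1 in log2 fold change of FPKM + 1, GARR2KO against WT, with the 6 members as vertical lines. All 6 lines lie below 0, bx2 and bx3 at -0.36 on the flank of the main peak and Zm00001d048634 at -1.29 further out.

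Genes with identifier numbers between those of the members also changed, in both directions. From Zm00001d048634 to bx2 the files list 61 other identifiers, of which 23 were tested. Of these 23, 6 rose and 10 fell, together 69.6% against 44.2% of all tested genes. Changes of 2-fold or more were called for 9 (4 up, 5 down), which is 39.1% against 4.01% of all tested genes. Among the 12 with a mean of at least 5 FPKM the share was 33.3%, against 3.61% of such genes in all. In the 25 tested genes before this stretch, 8 rose and 3 fell, 1 of each by 2-fold or more. The fall of that size had a log2 fold change of -1.29, also the rounded value of Zm00001d048634. Its means were 153 FPKM in WT and 62.0 FPKM in GARR2KO. In the 25 after the stretch 3 rose and 9 fell, 0 of them by 2-fold or more. The shares called, 44.0% before the stretch and 48.0% after it, were near the 44.2% of all tested genes. These flanks and the 5 FPKM class were chosen after the stretch had been seen.

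Between bx3 and bx2 only Zm00001d048707 was tested, and the other neighbours all lie between Zm00001d048634 and bx3. The 2 neighbours with the largest rises, picked by their values, were Zm00001d048698 and Zm00001d048683. Zm00001d048698 was listed at 0 in all 3 WT libraries and at 3.91, 3.85 and 3.60 FPKM in GARR2KO, from 0 and 824 reads. Zm00001d048683 stood at 0.328, 0.241 and 0.709 FPKM in WT and at 3.35, 4.43 and 3.91 FPKM in GARR2KO. The falls of 3 neighbours exceeded that of every member. Their log2 fold changes were -2.10 (a mean of 27.6 FPKM in WT and 5.67 in GARR2KO), -2.01 (3.38 and 0.0819 FPKM) and -1.52 (23.4 and 7.54 FPKM). Whether the fall of the members and the changes of these neighbours are linked was not tested, nor was the placement of these identifiers on the chromosome.

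**Figure D5:**
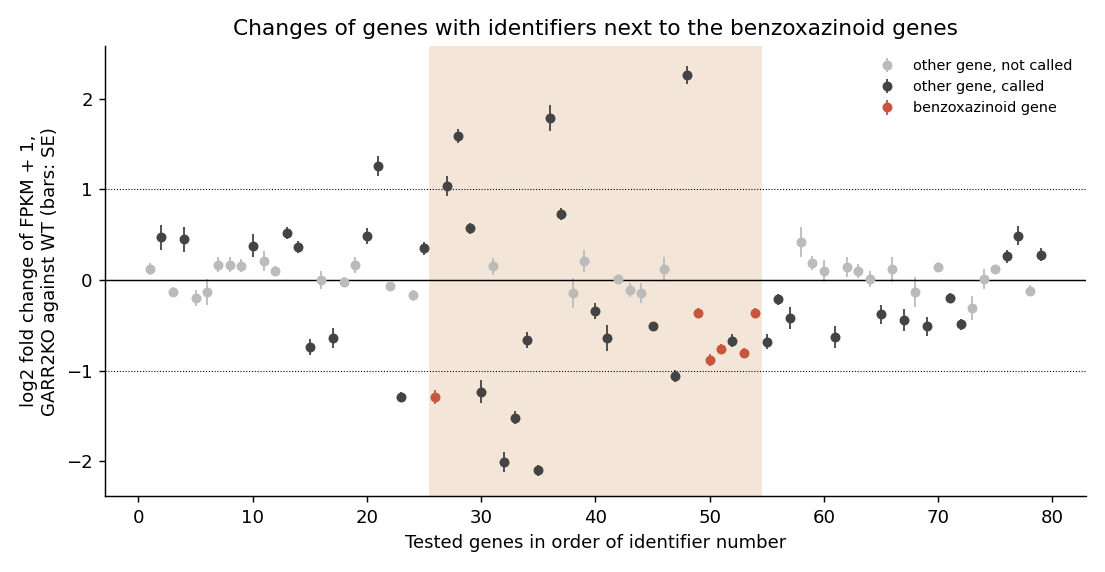
Log2 fold change of FPKM + 1 (GARR2KO against WT, bars SE) of tested genes in order of identifier number, from 25 before Zm00001d048634 to 25 after bx2; the shaded stretch runs from Zm00001d048634 to bx2 and dotted lines mark 2-fold. Members lie below 0, and 9 of the 23 other genes in the stretch lie beyond the dotted lines on both sides of 0.

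The genes most like the members in pattern were sought by Pearson's r over the 6 libraries with the mean of the members' standardised profiles. Zm00001d019670 (r = 0.9999) and Zm00001d006309 (r = 0.9998) came first. Zm00001d019670 was at 30.6, 32.5 and 31.6 FPKM in WT and at 21.1, 20.4 and 19.5 FPKM in GARR2KO. Zm00001d006309 was at 32.9, 34.6 and 33.6 FPKM in WT and at 21.8, 21.1 and 19.7 FPKM in GARR2KO. With 2 groups of libraries r mainly follows the genotype difference, and 445 of 21525 other genes had r of at least 0.99.

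Among the members themselves r with this profile ran from 0.9816 for bx3 to 0.9987 for bx5 and Zm00001d048634. The values of each member enter the profile, which raises its r by construction. Within genotypes the order of the libraries was not the same for all members. GARR2KO replicate 3 was the lowest of its group for every member but bx1, for which it was the highest. WT replicate 2 was the highest of its group for bx1, bx3, bx5 and Zm00001d048634 but the lowest for bx2. The coefficients of variation of bx1 in GARR2KO (2.2%) and of bx2 in WT (2.0%) were below those of counting alone (2.5% and 3.2%). The order of libraries for these genes therefore cannot show that they departed from the other members.

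The libraries held 17723048 to 20721628 recovered reads over the listed genes. WT replicate 2 stood somewhat apart from the other WT libraries, with a chi-square of reads per degree of freedom of 4.33 and 4.65 against 2.38 between the other pair. Without it all 6 members were still called, with log2 fold changes of -0.33 for bx3 and -1.23 for Zm00001d048634. Recovered reads summed over genes were 97.0 to 100.5% of the total behind the FPKM values in WT and 94.8 to 96.2% in GARR2KO. In WT replicate 3 the sum, 17750144, exceeded the total, 17656864, and the reason was not tested. Scaling by summed gene reads in place of the library totals moved bx2 and bx3 to -0.31 and bx4 to -0.83. All 6 members were still called lower. The labels do not say how reads that match several related P450 genes were assigned.

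Other genes of the pathway, from the later steps, the indole supply and the glucosidases that release the aglucone, were looked up by 14 names. RefSeq lists 10 of them, and 0 of the 44146 identifiers match an entry of that table, so none could be tied to a value and they are not analysed here.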

How the data were processed

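The authors deposited 1 table per library with 1 value per gene. The submitters' processing notes give TopHat2, Cufflinks and Cuffdiff on build B73 RefGen_v4, so the values were taken as FPKM. RPKM would look the same. As set out below, the values fitted whole reads over 1 whole length per gene. Which tool wrote them was not tested. Versions, annotation release and filters were not given in the sources used here. Samples were grouped by their titles. Genes whose 6 values averaged 1 FPKM or more were fitted by genotype with limma-trend on log2(FPKM + 1), using R 4.3.3 and limma 3.58.1, with p-values adjusted over all tested genes (Benjamini-Hochberg, calls under 0.05, two-sided). A fold change on this scale understates the change of low genes.

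Because low values of a gene rise in equal steps of 1 read, library totals, gene lengths and reads could be recovered, to within 0.01 of a whole read in all 31076 genes above 0; for genes seen in few libraries this is easily met. Lengths were whole for 99.5% of 3000 genes, against 50.8% with the total doubled. This contrast is no separate check, since the total was set on these same genes as the largest that gives whole lengths. Counting errors cover counting only. Fit and recovery were tested on simulated data. A voom fit on the reads and other scalings, filters and pseudocounts were alternatives. No 2 libraries were alike within counting noise, with a chi-square of reads per degree of freedom of at least 2.38.

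The members and lists were chosen with earlier results of these data known. All members are named, and of other genes the 2 most like them in pattern; genes named beyond this rule are marked as such. Growth, harvest or library batches are not named in the labels and cannot be told apart from genotype.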

Additional observations from a re-analysis of the deposited data

How the results depend on the processing

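All 6 members kept their direction and their call under all 15 alternatives: a pseudocount of 0.1, a minimum mean of 5 FPKM, no filter, median-of-ratios scaling, quantile normalization, scaling by summed gene reads, voom on recovered reads, robust moderation, the replicate block and leaving out each library. Over these, log2 fold changes ran from -0.82 to -0.74 for bx1, -0.37 to -0.31 for bx2, -0.39 to -0.31 for bx3, -0.94 to -0.83 for bx4, -0.81 to -0.71 for bx5 and -1.35 to -1.22 for Zm00001d048634, and the highest adjusted p was 0.00551 (limma, bx3 without GARR2KO replicate 3). The count of changed genes was 9517, from 7318 at a minimum mean of 5 FPKM, which tests fewer genes, to 10611 with voom; leaving out 1 library gave 7943 to 8847. Falls were 24.1% of tested genes, and from 16.7% with no filter to 28.8% at a minimum mean of 5 FPKM, a class that holds all 6 members. Rises were 45.4% of the calls, 50.4% after quantile normalization (4938 rises, 4865 falls), 54.3% with scaling by summed gene reads (5344, 4497) and 55.3% with voom (5866, 4745). Libraries sharing a number from 1 to 3 had no strong deviation in common. Their deviations from the genotype means correlated at -0.051, -0.046 and 0.049. Whether they were grown or prepared together is not stated in the labels, and these correlations cannot show it. With the replicate number as a block, 8963 genes changed and all 6 members were called. The lists without Zm00001d048634 and with Zm00001d048707 in its place were added once the values were known. At 747 to 11383 reads per member and library, depth was not low for any member.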
